A study of Mus musculus with 2 samples.

Results

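Mir451a, Mir144 and Mir486 are the 3 microRNA genes followed here as markers of red blood cells in the embryonic mouse heart. They were taken by stable Ensembl identifier from the 1973 microRNA genes of the deposited tables, and all 3 were found. The libraries hold small RNA of hearts dissected from B6NCrl mouse embryos of mixed sex at embryonic day 10.5, in pools of 51 embryos (replicate 2) and 69 embryos (replicate 1). The study has 1 group, which the labels call healthy and for which they name no treatment, so values could be compared between genes within a library and between the pools, but not between conditions. Own-strand gene counts totalled 4789068 in replicate 2 and 4163656 in replicate 1, and levels are counts per 1000000 of these (CPM). Each count is of a hairpin, so the arms of a hairpin cannot be told apart.

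MicroRNAs are short RNAs that guide Argonaute proteins to partly matching messenger RNAs and lower their output. Mir144 and Mir451a lie side by side in 1 primary transcript that the erythroid factor GATA1 switches on, and they build up as red cell precursors mature. The hairpin of Mir451a is too short for Dicer and is cut by Argonaute 2 itself, while Mir144 follows the usual Dicer route. Mir486 lies within Ank1, the gene of the red cell membrane protein ankyrin 1, and its microRNA is known from both red cells and striated muscle. At this age the heart pumps nucleated primitive red cells that arose in the yolk sac, so dissected hearts carry blood as well as heart wall.

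The sequences show how different the products of the shared cluster are. RefSeq entries (build GRCm38.p6) were matched for 2 of the 3 genes, Mir451a and Mir144. The mature forms are given with the seed, bases 2 to 8, in capitals, since the seed decides most target pairing, and miR-101a-3p is set beside miR-144-3p because both have the same bases 2 to 7.
miR-451a: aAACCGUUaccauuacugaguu
miR-144-3p: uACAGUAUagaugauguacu
miR-101a-3p: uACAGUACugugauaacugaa
miR-144-5p: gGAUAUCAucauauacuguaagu
No other gene of the RefSeq table had the 7-base seed of miR-451a or of either arm of Mir144. Bases 2 to 7 of miR-144-3p stood at the same place in the mature RNA of 1 other gene, Mir101a.

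The hairpins are given with the mature RNAs in capitals.
Mir451a hairpin: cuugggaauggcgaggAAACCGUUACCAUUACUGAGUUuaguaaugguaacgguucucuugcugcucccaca
Mir144 hairpin: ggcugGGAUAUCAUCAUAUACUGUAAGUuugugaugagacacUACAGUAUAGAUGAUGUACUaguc
The Mir144 hairpin carries a mature RNA on each arm. In Mir451a a single mature RNA runs from base 17 to base 38 of the 72-base hairpin, across the loop. Mir144 (ENSMUSG00000065401.1) lies at chr11:78073005-78073070 on the plus strand of mm10, and Mir451a (ENSMUSG00000070065.1) follows at chr11:78073170-78073241, 99 bases further on. Neither lies in a protein-coding gene. Mir451b covers the Mir451a interval on the minus strand, and the nearest protein-coding gene, Eral1 on the minus strand, lies 134 bases from Mir451a. Mir486 (ENSMUSG00000070084.3) lies at chr8:23142555-23142682 on the plus strand, in introns of Ank1 and of the antisense transcript Gm15816. Mir3107, which RefSeq also lists as mir-486b, overlaps it on the minus strand.

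Mir451a had the most counts of the 3 genes in both libraries. It had 7225 counts in replicate 2, which is 1509 CPM (95% exact interval 1474 to 1544), and 3944 counts in replicate 1, which is 947 CPM (918 to 977). Mir144 had 493 counts, or 103 CPM (94.1 to 112), in replicate 2 and 499 counts, or 119.8 CPM (109.6 to 131), in replicate 1. Mir486 had 484 counts, or 101 CPM (92.3 to 110.5), in replicate 2 and 388 counts, or 93.2 CPM (84.1 to 103), in replicate 1. Mir451a thus differed between the pools by more than counting error. The intervals of the other genes overlapped between the pools, but overlap alone does not show that levels were equal. Compared directly on this scale, the log2 ratio of replicate 2 over replicate 1 was -0.22 for Mir144 (-0.40 to -0.04). It was 0.12 for Mir486 (-0.08 to 0.31). Each interval comes from the count of 1 library, so it covers counting error only and no spread between pools. The reads carry no molecular identifiers, so repeated copies of 1 molecule are counted as separate reads and the intervals may be too narrow. A count of 0 allows up to 3 counts, or 0.626 CPM in replicate 2 and 0.721 CPM in replicate 1, so all 3 genes were far above the limit of detection. A read of these short-insert libraries is taken as 1 mature RNA, so counts are compared between genes without scaling by length. How evenly the library preparation captured different microRNAs was not tested. Ranks and ratios between genes are therefore of read counts, and their intervals do not cover unequal capture.

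**Figure D1:**
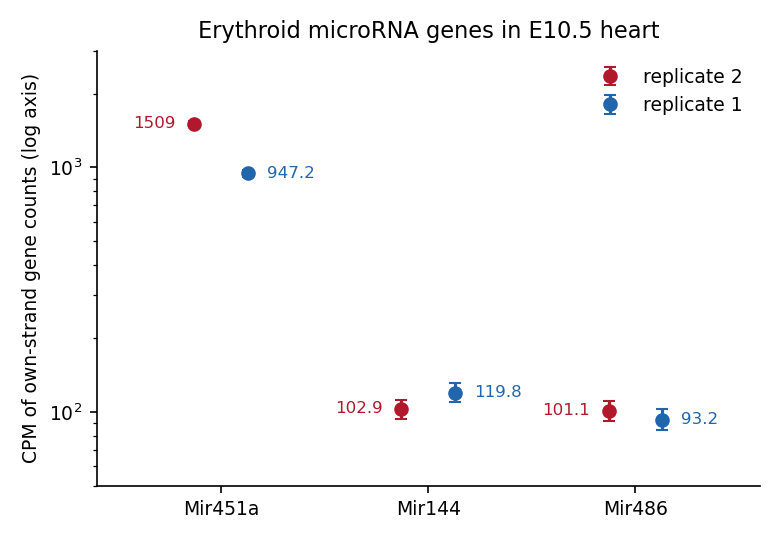
Level of each gene in CPM of own-strand gene counts (log axis), with replicate 2 left of replicate 1. Points are library values and bars are 95% exact counting intervals. Mir451a stands at 1509 and 947 CPM, while Mir144 and Mir486 lie between 93.2 and 119.8 CPM.

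Together the 3 genes held 0.171% of own-strand counts in replicate 2, with an interval of 0.168 to 0.175, against 0.116% in replicate 1, with an interval of 0.113 to 0.119. Mir451a made up most of this sum, with 88.1% of it (87.4 to 88.8) in replicate 2 and 81.6% (80.5 to 82.7) in replicate 1. Mir144 made up 6.01% in replicate 2 and 10.3% in replicate 1, and Mir486 5.90% in replicate 2 and 8.03% in replicate 1. The sum of assigned reads is therefore largely a measure of Mir451a. Any Mir486 reads that mapped to several places are missing from it. In such whole-tissue RNA, fewer cells of a type and less RNA per cell cannot be told apart.

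By level, Mir451a held rank 67 of the 1973 genes in replicate 2 and rank 105 in replicate 1. Mir144 held rank 196 in replicate 2 and 200 in replicate 1, and Mir486 held 197 and 210. Ranks by mean CPM among the 381 genes with at least 10 counts in both libraries were 86, 198 and 204. The genes next to Mir451a in this order were Mir501 (1341 CPM in replicate 2 and 1166 in replicate 1), Mir15b (1178 and 1283), Mir183 (554 and 1900) and Mir467c (1058 and 1369). The neighbours of Mir144 were Mir29c, Mir301b, Mir19a and Mir34a, with means between 108 and 115 CPM. Those of Mir486 were Mir190a, Mir345, Mir192 and Mir30c-1, with means between 95.5 and 100.2 CPM. For all 12 of these neighbours the range over the 2 libraries overlapped that of the gene it stood beside, so the order among them is not resolved at n = 2.

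The ratio of Mir451a to Mir144, products of the same transcript, was not the same in the pools. Mir451a exceeded Mir144 14.7-fold in replicate 2 (95% exact interval of the ratio 13.4 to 16.1), against 7.90-fold in replicate 1 (7.20 to 8.69). The ratio needs no scaling between libraries, and it was 1.85-fold higher in replicate 2, a log2 difference of 0.89 (0.70 to 1.08). A two-sided Fisher's exact test on the read counts gave an adjusted p = 9.73e-20, with adjustment over the 3 pairs of genes compared. This p measures counting error between 2 libraries and holds no estimate of the spread between pools. How the difference divides between Mir451a and Mir144 depends on the scaling between libraries.

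Mir451a exceeded Mir486 as well, 14.9-fold in replicate 2 (13.6 to 16.4) and 10.2-fold in replicate 1 (9.16 to 11.3). This ratio was 1.47-fold higher in replicate 2 (log2 difference 0.55, interval 0.35 to 0.76, adjusted p = 1.24e-07 in Fisher's exact test). Mir144 and Mir486, which lie on different chromosomes, stood near each other, with Mir144 over Mir486 at 1.02 in replicate 2 (0.897 to 1.16) and 1.29 in replicate 1 (1.12 to 1.47). The log2 difference of that ratio was -0.34 (-0.61 to -0.07, adjusted p = 0.0138 in Fisher's exact test). By assigned reads, Mir144 and Mir486 were thus indistinguishable in level at this depth in replicate 2, while Mir144 was the higher in replicate 1. Any Mir486 reads that mapped to several places, such as reads that also match the overlapping Mir3107, are missing from these ratios. The level of Mir486 may therefore be understated. Over the libraries, the log2 ratio of Mir451a averaged 3.43 ± 0.63 to Mir144 and 3.62 ± 0.39 to Mir486 (SD, n = 2).

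Scaled by TMM, which equalises the bulk of the genes between libraries, the log2 ratio of replicate 2 over replicate 1 was 0.95 for Mir451a (95% exact interval 0.89 to 1.00). It was 0.39 for Mir486 (0.20 to 0.59) and 0.06 for Mir144 (-0.13 to 0.24). In an exact two-sided binomial test with Benjamini-Hochberg adjustment over 424 genes, Mir451a was higher in replicate 2 (adjusted p = 3.72e-251) and so was Mir486 (adjusted p = 0.000158). Mir144 did not pass (adjusted p = 0.654). That is 2 of 3 genes higher and 0 lower, where 61.6% of all tested genes passed in either direction, 30.4% higher and 31.1% lower. The median log2 ratio was 0.39 over the 3 genes and -0.01 over all tested genes. With so many genes past the test, a pass says only that the pools differed by more than counting error.

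The scaling decides 2 of the 3 results. Scaling by total counts instead shifts the median log2 ratio of tested genes by -0.27. Mir451a was then still higher at 0.67 (0.62 to 0.73). Mir486 did not pass at 0.12 (-0.08 to 0.31), and Mir144 was lower at -0.22 (-0.40 to -0.04, adjusted p = 0.0288 in the exact binomial test). In that scaling 61.8% of genes passed, 15.6% higher and 46.2% lower. The sum of the 3 genes was 1.79-fold higher in replicate 2 with TMM and 1.48-fold higher with total counts.

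**Figure D2:**
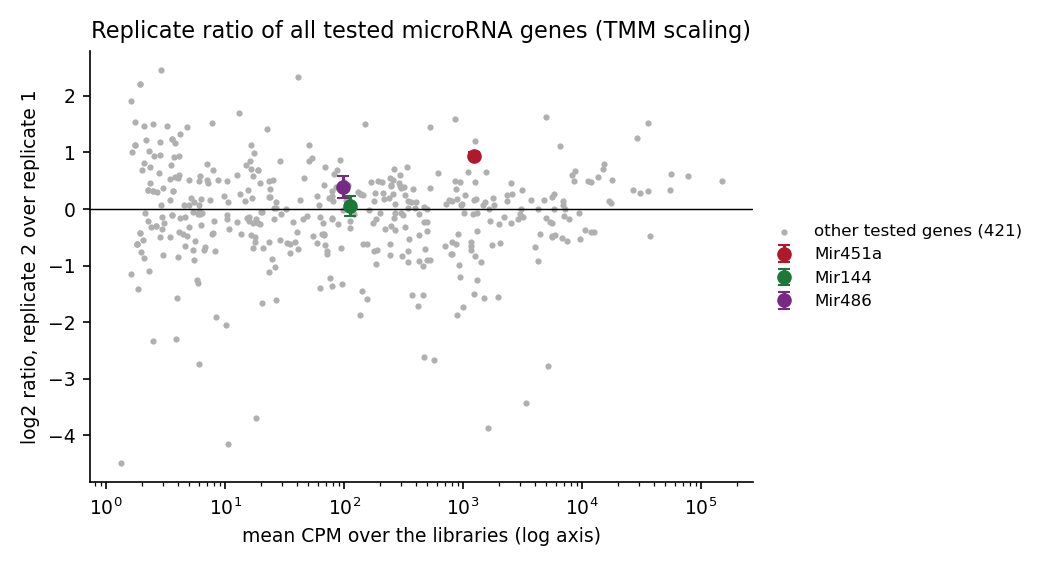
Log2 ratio of replicate 2 over replicate 1 with TMM scaling (y axis) against mean CPM (log x axis) for the 424 tested genes. Bars on the 3 erythroid genes are 95% exact counting intervals. Mir451a lies at 0.95, Mir486 at 0.39 and Mir144 at 0.06, within the cloud of the other genes.

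Set against the other genes, none of the 3 stood at the edge. An absolute log2 ratio larger than that of Mir451a was found for 78 of 424 genes (18.4%), larger than that of Mir486 for 243 (57.3%) and larger than that of Mir144 for 406 (95.8%). The median gene differed by 0.47. By the absolute difference of log2 ratios, over 2 libraries, the genes most like Mir451a among the 301 others whose summed counts reached 100 were Mir378d at 0.91, Mir450-2 at 0.99 and Mir7689 at 0.86.

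As a cluster, Mir144 and Mir451a diverged more than most neighbours did. Among 117 pairs of neighbouring tested genes on the same strand within 10 kb, the median difference between partners in log2 ratio was 0.20. The difference of 0.89 between Mir144 and Mir451a was number 10 in falling order, with 9 pairs (7.69%) above it. Several of those rest on few counts. Among the 88 pairs with at least 100 counts for each gene in each library, the median was 0.15, and 3 pairs (3.41%) lay above Mir144 and Mir451a. These were Mir758 with Mir329, Mir667 with Mir376c, and Mir376c with Mir300, all of the imprinted Dlk1-Dio3 locus and named after their values were seen. Pairs of 1 cluster share genes, so these positions are a description without a test.

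**Figure D3:**
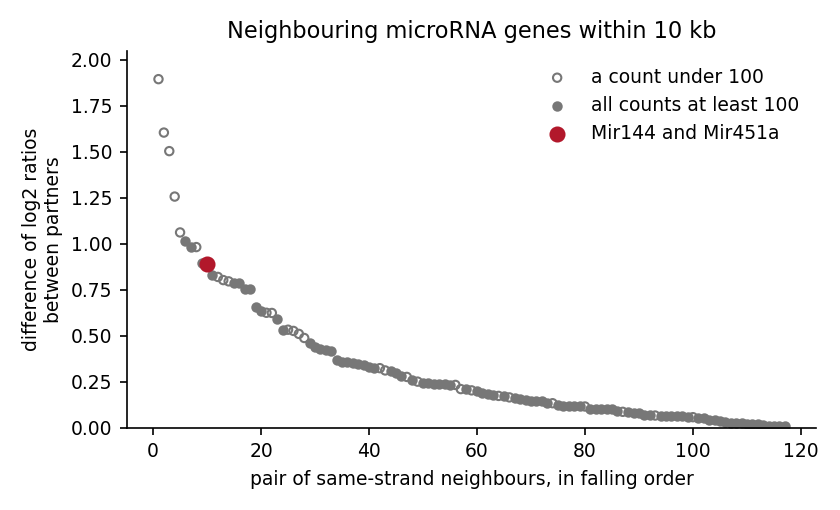
Absolute difference of log2 replicate ratios between the partners of each of 117 neighbouring gene pairs, in falling order. Filled points have at least 100 counts for each gene in each library. Mir144 and Mir451a, in red, lie at 0.89, above the median of 0.20.

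The strand counts set the loci apart. Mir451a and Mir144 had no read on the opposite strand in either library, which allows up to 3 counts each, so no read was seen for the Mir451b strand. A run of 16 bases is the longest that miR-451a shares with the Mir451b hairpin or with any other of the 1004 RefSeq hairpins compared. At Mir486, 44 of 528 reads lay on the opposite strand in replicate 2 (8.33%, 95% exact interval 6.12 to 11.0) and 32 of 420 in replicate 1 (7.62%, 5.27 to 10.6). Of the 381 detected genes, 350 in replicate 2 and 348 in replicate 1 had no opposite-strand read, and 7 and 6, Mir486 included, had a share at least as high. Mir3107 is not among the listed identifiers, so reads of that strand have no row of their own. Reads mapped to several places, 23.5% of all reads in replicate 2 and 23.3% in replicate 1, were not assigned to genes, and the part of them that came from Mir486 and Mir3107 was not tested.

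Mir101a, whose miR-101a-3p shares bases 2 to 7 with miR-144-3p, had 221 CPM in replicate 2 and 193 CPM in replicate 1. Its log2 ratio was 0.47, past the binomial test. It was above Mir144 in both libraries.

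Relative to genes of heart muscle and endothelium, the erythroid counts were few. The microRNAs of myosin heavy chain introns, Mir208a, Mir208b and Mir499, mark heart muscle and held 6.90% of counts in replicate 2 and 3.47% in replicate 1. Mir208b (49967 CPM in replicate 2, against 21037 in replicate 1) was higher at a log2 ratio of 1.52 with TMM. All 3 were higher in replicate 2 with TMM and with total counts, beside 30.4% and 15.6% of all tested genes. The erythroid sum was 40.3-fold below them in replicate 2 and 29.9-fold below in replicate 1, a log2 ratio of -5.12 ± 0.30 (SD, n = 2). Mir126a, the endothelial microRNA gene within Egfl7, exceeded the erythroid sum 32.4-fold in replicate 2 and 45.9-fold in replicate 1 (log2 ratio of the erythroid sum to Mir126a -5.27 ± 0.36). The replicates stood in opposite order for these references. In replicate 2 the erythroid sum was lower against heart muscle and higher against endothelium than in replicate 1. No test was run on these ratios, since an exact sign-flip test on 2 libraries cannot give a two-sided p under 0.5.

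Against the leukocyte genes the answer depended on the members counted. The log2 ratio of the erythroid sum to the listed leukocyte genes was -2.03 in replicate 2 and -2.75 in replicate 1. Mir342, which lies in the Evl gene and is also made outside blood, had 6633 CPM in replicate 2 and 7312 in replicate 1. It supplied 94.8% of that list's counts in replicate 2 and 93.6% in replicate 1. Without Mir342 the ratio was 2.25 in replicate 2 and 1.22 in replicate 1, so the erythroid sum was then the higher. The tables have no row for Mir142, which is abundant in leukocytes, and reads at its locus were counted opposite to Mir142b, 8151 in replicate 2 and 10687 in replicate 1. With counts over both strands and without Mir342, the ratio was -0.26 in replicate 2 and -1.39 in replicate 1. Under each of these ways of counting, the ratio was higher in replicate 2 than in replicate 1.

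The summed counts of the liver and gut list, most of them from Mir122 in replicate 1, moved against Mir451a between the pools. It had 2412 counts in replicate 2 and 14325 in replicate 1, of which Mir122, the main microRNA of hepatocytes, supplied 836 in replicate 2 and 12817 in replicate 1. The log2 ratio of the erythroid sum to this list was 1.77 in replicate 2 and -1.57 in replicate 1. It was not computed without Mir122. In the list 2 of 5 genes were higher and 3 lower in replicate 2, beside 30.4% and 31.1% of all tested genes, with a median log2 ratio of -1.23. Mir192 (47.8 CPM in replicate 2 and 146 in replicate 1) went the way of Mir122, while Mir215 (211 and 89.8 CPM) went the other way. The part that liver or other tissue taken along with the hearts has in the erythroid counts was not tested.

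**Figure D4:**
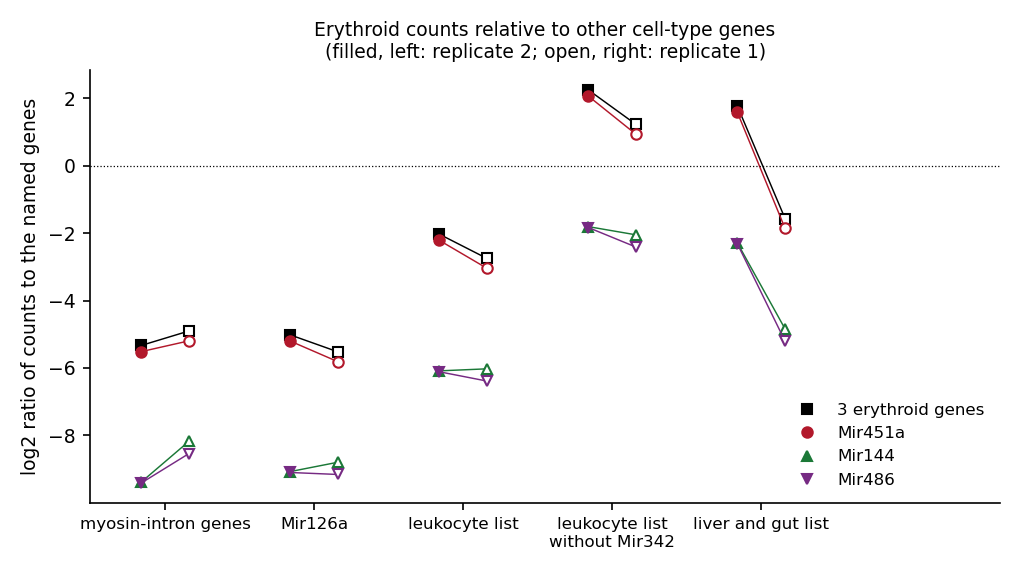
Log2 ratio of the counts of the 3 erythroid genes together (black) and of each gene (colours) to the counts of other cell-type genes within each library. Filled symbols on the left are replicate 2 and open symbols on the right replicate 1, and 0 means equal counts. The sum lies near -5 for heart muscle and endothelial genes and crosses 0 between the pools for the liver and gut list.

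Other microRNAs abundant in mature red cells went both ways between the pools. These genes are also made by many other cells, and 17 of the 20 listed were matched by symbol. Mir92a-1, Mir92a-2 and Mir191 were not matched. The Mir92a genes have rows under the symbols Mir92-1 and Mir92-2, which are left out of the counts that follow. Both were lower in replicate 2 with TMM, at log2 ratios of -0.23 and -0.62. Of the 17 matched genes, 6 were higher in replicate 2, 8 lower and 3 did not pass. Among all tested genes 30.4% were higher and 31.1% lower. The median log2 ratio of the matched genes was -0.08. With total counts as the scaling, 2 were higher and 13 lower, beside 15.6% and 46.2% of all tested genes. Mir22 was the highest in level, with 9924 CPM in replicate 2 and 7530 in replicate 1, and was higher at 0.67. Mir93 (6517 and 8913 CPM) was lower at -0.18, and Mir106b (4599 and 6569 CPM) at -0.24. Mir16-1 and Mir16-2 give the same mature RNA, so their unassigned reads are unknown.

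MicroRNAs known to fall as erythroid progenitors mature went both ways. Of 6 listed genes in the tables, 2 were higher in replicate 2, 2 lower and 2 did not pass, with a median of 0.01, beside 30.4% higher and 31.1% lower among all tested genes. With total counts 1 was higher and 3 were lower (15.6% and 46.2% of all tested genes), with a median of -0.26. Mir221 and Mir222, which restrain the receptor gene Kit in human progenitors, had 15.5 and 16.1 CPM in replicate 2 and 34.6 and 23.3 CPM in replicate 1. Mir221 was lower at -0.88, while Mir222 did not pass at -0.26 with TMM and was lower at -0.53 with total counts. Mir24-2 had 278 CPM in replicate 2 and 234 in replicate 1 and was higher at 0.52. Another gene gives an identical mature RNA, so the unassigned reads of Mir24-2 are unknown. Mir155 had 214 CPM in each library and was higher at 0.28 with TMM, but did not pass with total counts. Mir223, a myeloid microRNA, had 118 CPM in replicate 2 and 240.2 in replicate 1 and was lower at -0.75. Mir150, at 6.47 and 5.52 CPM, did not pass. Mir155, Mir223 and Mir150 also belong to the leukocyte list, of which 2 of 5 tested genes were higher and 2 lower with TMM (30.4% and 31.1% of all tested genes). With total counts 0 of the 5 were higher and 3 lower (15.6% and 46.2% of all tested genes), and Mir342, higher at 0.13 with TMM, was lower at -0.14.

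**Figure D5:**
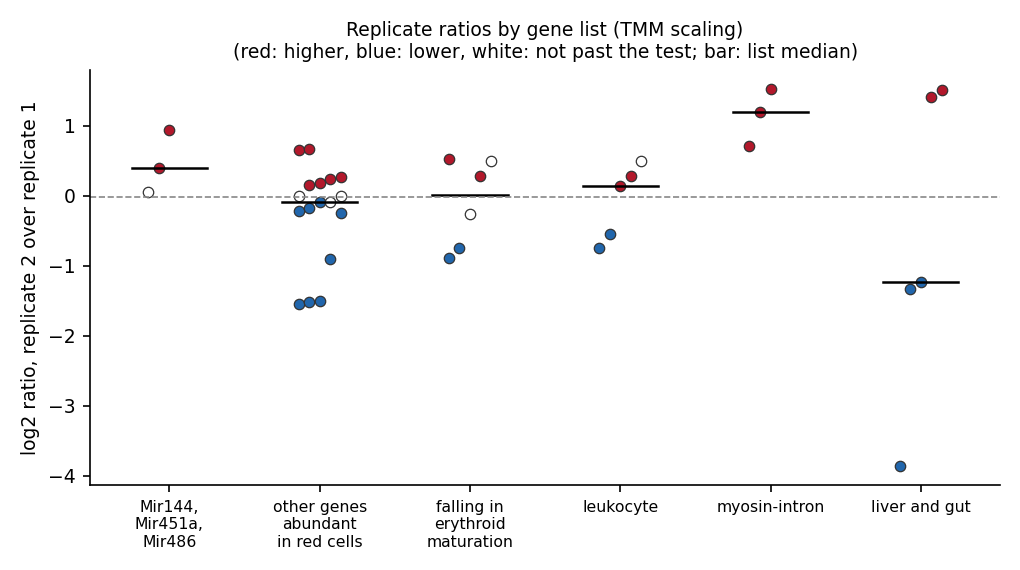
Log2 ratio of replicate 2 over replicate 1 (TMM scaling) for the tested members of 6 gene lists, as matched by symbol. Red points were higher and blue points lower in replicate 2 in the exact binomial test, white points did not pass, bars are list medians and the dashed line is the median of all 424 tested genes. Lists other than the myosin-intron one hold points of more than 1 kind, and Mir122 is the lowest point of the liver and gut list.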

How the data were processed

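Small RNA sequencing was counted per microRNA gene in 2 libraries of 1 group. The deposited values are raw counts made by the authors from each library's own alignment to mm10 with GENCODE M4 models, per the README files. Aligner, counter and trimming: not given in the sources used here. Own-strand counts (column 3) were used. Library sizes exclude the rows without a gene, where replicate 2 had 25.5% of its reads unmapped, 23.5% multimapping and 7.41% outside listed genes, and replicate 1 had 26.3%, 23.3% and 8.98%. Symbols came from GENCODE M21 on the same assembly, matched for 1894 of 1973 identifiers, and sequences from RefSeq.

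Genes with at least 10 counts in a library entered an exact conditional binomial test on library sizes corrected by TMM from edgeR 4.0.16, using a prior count of 0.5 in log2 ratios and a threshold of 0.05 on Benjamini-Hochberg adjusted p. edgeR's quasi-likelihood test needs 2 replicated groups and could not be fitted. Ratios between genes were compared with Fisher's exact test (scipy 1.17.1). Alternatives were counts over both strands, scaling by total counts or by size factors of DESeq2 1.42.0, other denominators, no filter, a prior count of 2 and each library alone. The binomial test was checked on simulated counts with counting error only and without TMM. The check therefore does not cover spread between pools. The genes named were the members, the 2 genes above and 2 below each in level, the 3 most like Mir451a in replicate ratio, genes at the loci and the 3 highest of each list. Mir101a, Mir16-1, Mir16-2, Mir92-1, Mir92-2, Mir142b, Mir221, Mir222 and Mir150 fall outside this rule and were named after their values were seen. The members and lists were chosen with earlier results of these data known. The labels call the libraries biological replicates.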

Additional observations from a re-analysis of the deposited data

Results flagged for a closer look

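Reads on the strand opposite to Mir486 lie outside the own-strand measurement and exceeded the 3 counts that a count of 0 allows, with 44 in replicate 2 and 32 in replicate 1. At Mir142b, which belongs to the leukocyte list, 8151 reads in replicate 2 and 10687 in replicate 1 lay on the opposite strand, where Mir142 is annotated, and 0 on its own.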

How the results depend on the processing

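Leaving out each replicate gave ranges of 947 to 1509 CPM for Mir451a, 103 to 119.8 for Mir144 and 93.2 to 101 for Mir486, of 0.116% to 0.171% for their share, and of 2.98 to 3.87 and 3.35 to 3.90 for the log2 ratio of Mir451a to Mir144 and to Mir486. The log2 ratio of the erythroid sum ranged from -5.33 to -4.90 to myosin-intron genes, from -2.75 to -2.03 to leukocyte genes and from -5.52 to -5.02 to Mir126a. With all reads, mapped or not, as the denominator, mean CPM was 525 for Mir451a, 47.3 for Mir144 and 41.3 for Mir486, and the share was 0.0613%, which follows from the larger denominator. Without Mir335 in the denominator, Mir144 had 131 and Mir486 114.5 CPM. With total counts as the scaling, Mir144 turned to -0.22, Mir486 no longer passed at 0.12 (adjusted p = 0.300 in the exact binomial test, against 1.17e-05 to 0.000416 in its other alternatives), and 66 genes were higher in replicate 2, against 129. DESeq2 size factors, counts over both strands, no filter and a prior count of 2 changed no call or direction of the 3 genes. The replicate ratio of the sum of the 3 genes was not planned beforehand. Both of the next settings were added after seeing the data. Without Mir342, the mean log2 ratio to leukocyte genes turned to 1.74, and with at least 100 counts per gene and library Mir144 and Mir451a were number 4 among neighbour pairs. No paired analysis was possible because the study has 1 group. With 1 library per pool, differences of pools and of library preparation cannot be told apart.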
